A study of Mus musculus with 14 samples.

Results

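A reverted embryonic stem cell line was compared at passage 30 after growth without the Mll1 inhibitor MM401 and with it. The comparison takes 4 of the 14 RNA-seq libraries of the series, 2 of rES passage 30 without MM401 (called withdrawn cells here) and 2 of rES passage 30 (called maintained cells). Mouse epiblast stem cells (EpiSC) had been turned into embryonic stem-like cells with MM401 in medium with the cytokine LIF, knockout serum replacement (KSR) and KO-DMEM. The resulting line was kept at 25 µM MM401 after passage 3, and both groups share this history, the medium, the passage number and the genotype label CD1-deltaTSIX/JF1. Of the other groups used below, MM401 day 3 and MM401 P2 (day 6) were labelled 100 µM MM401, and rES passage 6 25 µM. The sources used here do not say how long the withdrawn cells had grown without MM401, whether the line is 1 clone, or whether feeder cells were present. The 2 libraries of each group are called biological duplicates by the submitters. The p-values rest on the spread between libraries within all 7 groups of the series, fitted together, and this spread may be technical.

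Mll1, encoded by Kmt2a, methylates histone H3 at lysine 4 and works in a complex with Wdr5, Rbbp5, Ash2l and Dpy30. MM401 is a cyclic peptidomimetic that blocks the contact between Mll1 and Wdr5. Naive embryonic stem cells, which resemble the early epiblast, depend on LIF, while EpiSC represent the later, primed epiblast and depend on FGF and activin. The comparison asks which transcripts differ once the inhibitor is removed from cells that have already left the primed state.

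Withdrawn libraries held 21785385 and 21075942 counts, and maintained libraries 23629152 and 21062819. Log2 CPM (counts scaled to library size, after TMM) of the 2 libraries of a group had a Pearson r of 0.993 in withdrawn and 0.992 in maintained cells. The ribosomal RNA precursor Rn45s took 0.794% and 0.913% of the counts in withdrawn libraries, against 0.549% and 2.01% in maintained libraries. Maintained replicate 2 thus stood apart, and counts of list members without this library are given where they moved by over 1.5 times. Of 8 pluripotent cell markers all had counts in every library, with summed levels of 7543 and 7769 CPM in withdrawn cells and 7231 and 7152 CPM in maintained cells, so markers of the labelled cell type were present in both groups.

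Transcript length was examined before any pathway, because the fold changes followed it. Over 16093 tested genes with a transcript length, the log2 fold change (withdrawn over maintained) had a slope of -0.064 per 2-fold increase in length and a Spearman rho of -0.31 across genes, which are not independent replicates. A slope on length was also taken in each library, of log2 CPM relative to the mean of the 4 compared libraries. It was -0.024 and -0.039 in withdrawn libraries and 0.026 and 0.037 in maintained libraries. This centring puts the means of the 2 groups on opposite sides of 0 by construction. The 2 groups did not overlap, and their difference of -0.063 had a two-sided exact permutation p of 0.33, the smallest that 2 against 2 libraries allow. Relative to the same mean, the other groups ran from -0.067 and -0.065 in cells of MM401 day 3 to 0.080 and 0.086 in EpiSC. Slopes of this size thus occurred across the series.

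Among the 1611 genes with the shortest transcripts (56 to 1218 bases), 20.5% were called higher and 1.3% lower in withdrawn cells. Among the 1609 with the longest (6575 to 123179 bases), 1.43% were called higher and 32.4% lower. Genes called higher had a median length of 2047 bases and genes called lower 5292 bases, against 3016 bases over all tested genes. A second fit removed a smooth curve on length from each library. It left a rho of -0.010, and the shares in the shortest group became 9.81% higher and 3.29% lower, and in the longest group 11% higher and 10.1% lower. The source of the trend was not tested. Counts of list members are therefore given from both fits. Values of single genes come from the uncorrected fit unless another is named, and a corrected value is given where it moved the log2 fold change by over 1.5 times or ended the call.

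**Figure D1:**
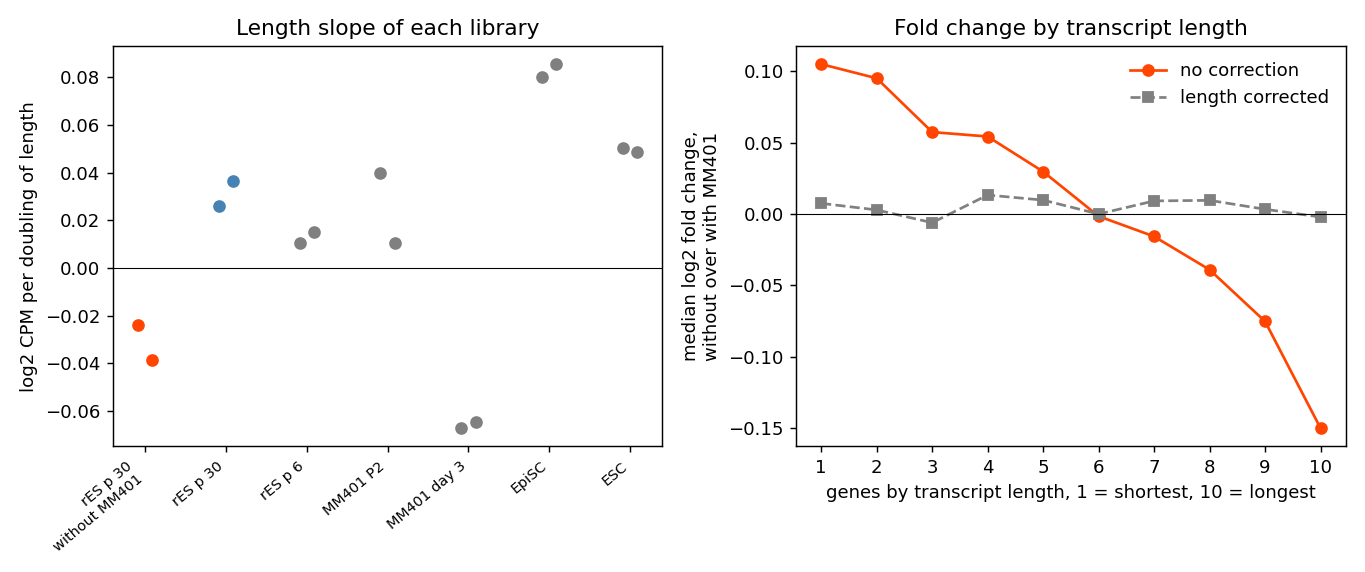
Left, slope of log2 CPM on log2 transcript length in each library, relative to the mean of the 4 compared libraries, 2 points per group. Withdrawn cells stood at -0.024 and -0.039 and maintained cells at 0.026 and 0.037. Right, median log2 fold change (withdrawn over maintained) of genes in 10 groups by transcript length, from 0.105 for the shortest to -0.15 for the longest without correction, and near 0 in all 10 after it.

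Expression changed at many genes by small amounts. Of 16222 genes tested, 3187 (19.6%) passed an adjusted p of 0.05 in edgeR's quasi-likelihood test, 1680 (10.4%) higher and 1507 (9.29%) lower in withdrawn cells. The balance of directions turned with the scaling, to 1436 higher and 1701 lower with RLE size factors, 1408 and 1745 with upper quartile scaling and 1337 and 1555 in DESeq2. The median size of a called log2 fold change was 0.24, with medians of 0.23 for genes called higher and -0.25 for genes called lower. Only 186 called genes (1.15%) reached 1.5-fold and 44 (0.271%) reached 2-fold, and 42 of those 44 lay below 10 CPM in both groups. When the null was a 2-fold change, edgeR called 0 genes, with 47 at an unadjusted p under 0.05, while DESeq2 called 17 genes at 2-fold or more against no change. After length correction 2503 genes (15.4%) were called, 1440 (8.88%) higher and 1063 (6.55%) lower. Calls shared by both fits numbered 1912, of which 1057 were higher, 854 lower and 1 of opposite sign. Lost with the correction were 1275 calls, 652 of them lower and 623 higher. Correction for length and GC content together gave 18.1%. With 1 library left out, called higher and called lower were 9.06% and 7.47% without withdrawn replicate 1, 6.04% and 5.93% without withdrawn replicate 2, 8.12% and 7.17% without maintained replicate 1, and 6.72% and 6.45% without maintained replicate 2. The values of the 2 groups did not overlap at 8826 genes (54.4%).

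Among called genes of at least 10 CPM in a group, the largest rise without correction was in Nrtn, which encodes neurturin, a ligand of the GDNF family. It had 20.2 and 21.3 CPM in withdrawn libraries and 8.59 and 6.83 CPM in maintained libraries, a log2 fold change of 1.42 ± 0.12 (standard error; adjusted p = 3.51e-11), and 1.31 ± 0.12 after length correction. Its GC content is 72.8%, and correction for length and GC content together gave 0.80 ± 0.12. Its mean was 9.50 CPM in rES passage 6, 20.0 CPM in MM401 day 3 cells, 6.13 CPM in EpiSC and 3.15 CPM in ESC, so withdrawn cells lay above every other group but stood close to the day 3 cells. Scand1, which encodes a SCAN domain protein, had 35.8 and 38.6 CPM in withdrawn and 18.0 and 10.4 CPM in maintained libraries (log2 fold change 1.37 ± 0.22, and 0.97 ± 0.12 after correction for length and GC content, above Nrtn in that fit). The maintained libraries differed more from each other at Scand1 than at Nrtn, but neither gene's groups overlapped, as at 54.4% of all tested genes.

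Transcription factors and signalling genes were among the other leading rises. Tcf15, a bHLH factor linked to exit from naive pluripotency, had 111.0 and 113.9 CPM in withdrawn and 73.5 and 59.6 CPM in maintained libraries (log2 fold change 0.75 ± 0.07, adjusted p = 8.01e-09, and 0.44 ± 0.05 after correction for length and GC content). Rgcc, a cell cycle regulator that responds to complement, had 39.0 CPM in both withdrawn libraries and 24.3 and 21.7 CPM in maintained ones (0.76 ± 0.08). Wnt11, a ligand of noncanonical Wnt signalling, had 14.5 and 15.9 CPM in withdrawn and 10.6 and 7.56 CPM in maintained libraries (0.74 ± 0.14). Jund, an AP-1 subunit, had 190.2 and 203.9 CPM in withdrawn and 136.1 and 96.8 CPM in maintained libraries (0.75 ± 0.15, adjusted p = 0.0119, and 0.42 ± 0.09 after correction for length and GC content), but its call was lost without withdrawn replicate 2, at 0.70. Taf10, a subunit shared by TFIID and SAGA, had 51.4 and 52.8 CPM in withdrawn and 34.5 and 26.8 CPM in maintained libraries (0.76 ± 0.09). At each of these 5 genes the maintained replicates spanned a wider range than the withdrawn ones, with replicate 2 lowest. Both withdrawn values were higher in every case, at genes picked as called, while 54.4% of all tested genes showed no overlap. The 15 largest rises of at least 10 CPM ran from 0.72 to 1.42 on the log2 scale. They had a median length of 1123 bases and a median GC content of 62.7%, against 50.4% over all tested genes. All 15 were still called after length correction, and 14 after correction for length and GC content together. A slope on GC content was also taken in each library, as for length. It was -0.00041 and 0.0062 per percent in withdrawn libraries and 0.0019 and -0.0076 in maintained libraries, with maintained replicate 2 lowest. The groups overlapped, and their difference of 0.0058 had an exact permutation p of 0.667. The source of the low slope in maintained replicate 2 was not tested.

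The 15 largest falls of at least 10 CPM ran from -0.61 to -0.82, had a median length of 6090 bases and were all called after either correction. Polr2a, the largest subunit of RNA polymerase II, had 378.5 and 325.0 CPM in withdrawn and 546.7 and 549.0 CPM in maintained libraries, a log2 fold change of -0.64 ± 0.05 (adjusted p = 1.38e-10) and of -0.53 ± 0.04 after length correction. Eif4g3, a scaffold of translation initiation, had 42.4 and 48.6 CPM in withdrawn and 75.6 and 72.4 CPM in maintained libraries (-0.70 ± 0.06). The nuclear noncoding RNA Malat1 had 380.1 and 370.5 CPM in withdrawn and 570.9 and 572.9 CPM in maintained libraries (-0.61 ± 0.05). Runx1t1, a transcriptional corepressor, had 6.71 and 6.18 CPM in withdrawn and 10.3 and 11.1 CPM in maintained libraries (-0.73 ± 0.13). In each of these 4 genes, picked as called, both withdrawn libraries were below both maintained ones, while 54.4% of all tested genes showed no overlap. Calls of Scn3a (-0.62) and Gm8994 (-0.59), both also among these falls, were lost without withdrawn replicate 2, and that of Gm8994 also with any other of the 4 libraries left out (-0.60 to -0.63).

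**Figure D2:**
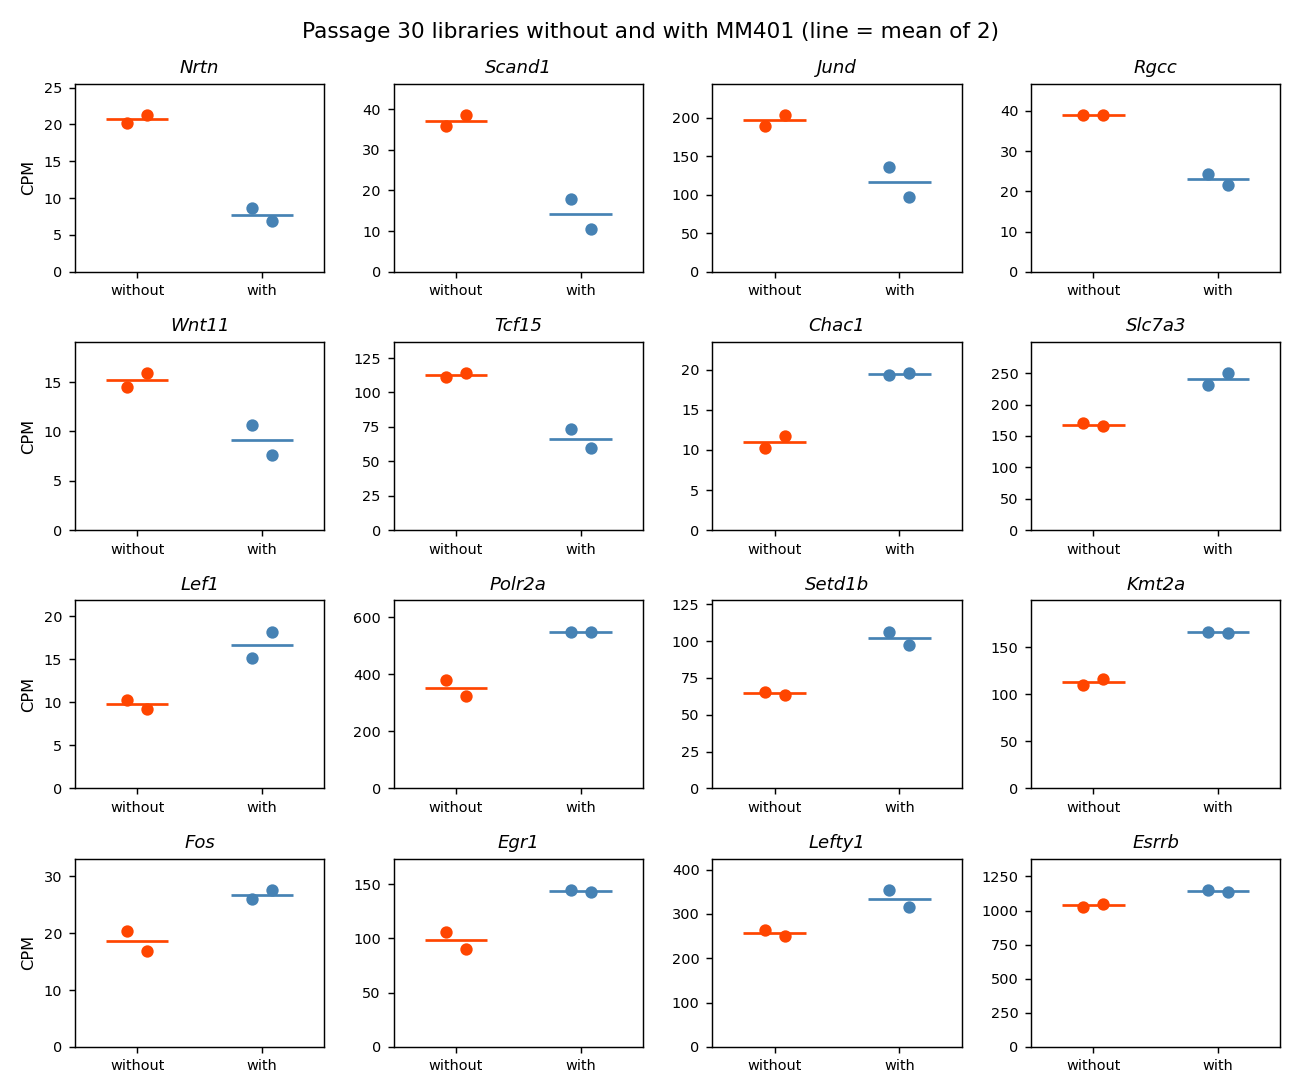
CPM of 16 named genes in each library, with withdrawn cells on the left and maintained cells on the right of each panel and a line at the mean of 2. Nrtn was at 20.2 and 21.3 CPM in withdrawn and 8.59 and 6.83 CPM in maintained libraries, and Chac1 at 10.2 and 11.8 CPM in withdrawn and 19.4 and 19.6 CPM in maintained libraries. The 2 groups do not overlap in any of the 16 panels, all of which show called genes. They did not overlap at 54.4% of all tested genes either.

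The largest fall among genes of at least 10 CPM was Chac1, an enzyme that degrades glutathione and a target of the factor Atf4 in the integrated stress response. Chac1 had 10.2 and 11.8 CPM in withdrawn and 19.4 and 19.6 CPM in maintained libraries, a log2 fold change of -0.82 ± 0.09 (adjusted p = 9.03e-09) and of -0.91 ± 0.09 after length correction. The integrated stress response raises amino acid supply when translation is limited, through Atf4 and related factors that bind a composite C/EBP-ATF element. The promoter windows of Chac1, of Herpud1 (a protein of endoplasmic reticulum-associated degradation, called lower in both fits) and of Asns (asparagine synthetase, called in neither fit) are shown to compare this element between genes called lower and a gene that was not called. They are RefSeq windows of GRCm38.p6, from 250 bases before to 50 bases after the start, at chr2:119350992-119351291 (plus strand), chr8:94386179-94386478 (plus strand) and chr6:7693160-7693459 (minus strand), written 5′ to 3′. Capitals mark matches to TGATGNAAN on either strand.
Chac1: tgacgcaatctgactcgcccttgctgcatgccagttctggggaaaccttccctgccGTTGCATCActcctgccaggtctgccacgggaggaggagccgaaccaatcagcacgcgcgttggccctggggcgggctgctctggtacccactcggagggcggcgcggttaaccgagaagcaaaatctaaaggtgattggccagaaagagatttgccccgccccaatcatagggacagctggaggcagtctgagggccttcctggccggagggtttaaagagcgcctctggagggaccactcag
Herpud1: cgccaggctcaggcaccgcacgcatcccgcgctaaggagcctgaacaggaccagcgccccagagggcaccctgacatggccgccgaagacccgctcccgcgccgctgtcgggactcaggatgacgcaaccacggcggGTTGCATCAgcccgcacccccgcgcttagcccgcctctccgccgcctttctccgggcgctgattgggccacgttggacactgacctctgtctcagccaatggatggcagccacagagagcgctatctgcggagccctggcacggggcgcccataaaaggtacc
Asns: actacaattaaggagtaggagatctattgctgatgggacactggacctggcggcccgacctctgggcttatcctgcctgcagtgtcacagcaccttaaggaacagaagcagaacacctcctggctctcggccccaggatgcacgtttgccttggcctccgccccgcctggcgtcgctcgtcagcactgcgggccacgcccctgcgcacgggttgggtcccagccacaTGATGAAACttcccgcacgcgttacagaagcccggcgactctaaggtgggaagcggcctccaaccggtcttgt
With the start counted as 1, the match began at position -194 in Chac1 and -113 in Herpud1, both on the opposite strand, and at -23 in Asns on the gene's own strand. Over all 32851 windows, 3.95% held a match. Among the list of the integrated stress response, 23 of 26 genes had a window and 8 held a match. After length correction 10 genes of this list were called lower, of which 8 had a window and 3 a match, while 15 genes with a window were not called lower and 5 of those held a match.

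The list as a whole shifted in counts between the fits. Without correction 6 of its 26 members were called lower and 3 higher, with a median log2 fold change of -0.090 against -0.0016 over all genes. After length correction 10 were called lower and 2 higher, with a median of -0.099 against 0.0040. Of all tested genes 9.29% were called lower and 10.4% higher, and 6.55% and 8.88% after correction. Slc7a3, a transporter of cationic amino acids, had 170.7 and 165.5 CPM in withdrawn and 231.8 and 249.7 CPM in maintained libraries (-0.52 ± 0.04, adjusted p = 2.8e-12). Slc7a5, which carries large neutral amino acids, had 168.2 and 166.2 CPM in withdrawn and 215.5 and 208.5 CPM in maintained libraries (-0.34 ± 0.04). Herpud1 had 23.0 and 22.8 CPM in withdrawn and 26.5 and 28.8 CPM in maintained libraries (-0.27 ± 0.07), and Asns had 765.0 and 737.0 CPM in withdrawn and 713.9 and 722.4 CPM in maintained libraries (0.065 ± 0.033, adjusted p = 0.179). Atf4 itself had 361.3 and 368.2 CPM in withdrawn and 378.0 and 387.2 CPM in maintained libraries (-0.069 ± 0.035, adjusted p = 0.185), and was called lower after length correction (-0.15 ± 0.03, adjusted p = 0.00192). Cebpb went the other way, with 26.0 and 21.2 CPM in withdrawn and 16.7 and 13.6 CPM in maintained libraries (0.63 ± 0.13, adjusted p = 0.00154), although its call was lost when GC content was corrected as well (0.29 ± 0.12, adjusted p = 0.125). Herpud1, Asns and Atf4 fall outside the fixed rule for named genes and were chosen after their values were seen.

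The gene of the inhibitor's target was itself lower in withdrawn cells. Kmt2a had 110.3 and 115.7 CPM in withdrawn and 166.3 and 165.2 CPM in maintained libraries (-0.55 ± 0.05, adjusted p = 5.97e-11), and its transcript is 16470 bases long, so the log2 fold change was -0.29 ± 0.05 after length correction (adjusted p = 3.52e-05). Of 20 subunits of the MLL and SET1 complexes 9 were called lower and 1 higher without correction, and 7 lower and 1 higher after it, with medians of -0.053 and -0.014. Over all tested genes 9.29% were called lower and 10.4% higher, and 6.55% and 8.88% after correction. Large catalytic subunits were among those called lower. Setd1b, a catalytic subunit of SET1, had 65.5 and 63.3 CPM in withdrawn and 106.3 and 97.2 CPM in maintained libraries (-0.66 ± 0.05, and -0.51 ± 0.05 after correction). Kmt2c and Kmt2d, which methylate histone H3 at enhancers, changed by -0.50 ± 0.04 and -0.48 ± 0.04, and by -0.25 ± 0.04 and -0.19 ± 0.04 after correction. Hcfc1, a partner that links these complexes to promoters, changed by -0.38 ± 0.03 and by -0.23 ± 0.03 after correction. The core members Wdr5, Ash2l and Rbbp5 were not called. Wdr5 had 559.6 and 588.3 CPM in withdrawn and 537.6 and 546.7 CPM in maintained libraries (0.082, adjusted p = 0.0826), Ash2l 254.0 and 270.7 CPM in withdrawn and 258.0 and 268.3 CPM in maintained libraries, and Rbbp5 104.6 and 106.7 CPM in withdrawn and 100.3 and 105.7 CPM in maintained libraries. Wdr5 was called higher without withdrawn replicate 1 (0.12), and 2 subunits were called higher in that fit and without maintained replicate 2. Wdr5 was also called higher after correction for length and GC content (0.081 ± 0.027, adjusted p = 0.0325), in which 2 subunits were called higher.

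Hox genes are textbook targets of Mll1. None of 42 tested Hox, Meis and Pbx genes was called by edgeR in either fit, with 1 higher and 3 lower at an unadjusted p under 0.05 in both fits, and 0 called by DESeq2. Leaving out withdrawn replicate 1 gave 2 calls lower. Meis1, a Hox cofactor, had 3.61 and 3.43 CPM in withdrawn and 3.76 and 3.41 CPM in maintained libraries.

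Many other chromatin genes were called lower, and fewer of them after length correction. For comparison, 9.29% of all tested genes were called lower and 10.4% higher, and 6.55% and 8.88% after correction. The chromatin remodellers had a median length of 8347 bases. Among all genes with the longest transcripts (from 6575 bases), 32.4% were called lower, and 10.1% after correction. Of 34 chromatin remodellers, 24 were called lower and 1 higher without correction, and 13 lower and 1 higher after it, with medians of -0.24 and -0.11 (0 higher without either replicate 2, uncorrected). Chd7, Ep400, Arid1a and Bptf, subunits or ATPases of remodelling complexes, changed by -0.59, -0.47, -0.43 and -0.37, and by -0.42, -0.28, -0.29 and -0.16 after correction. Of 19 histone demethylases 11 were called lower without correction, but only 3 lower and 1 higher after it, Kdm6b (an H3K27 demethylase) being the one with the smallest adjusted p (113.1 and 112.2 CPM in withdrawn and 159.8 and 138.1 CPM in maintained libraries, -0.41 ± 0.05 without correction). For this list leaving out single libraries gave 7 to 9 calls lower, 7 without either withdrawn library, and 1 call higher without maintained replicate 1. Among 15 genes of DNA methylation and its removal 6 were called lower, and 3 lower and 1 higher after correction (3 lower without withdrawn replicate 1 and 4 lower with 1 higher without maintained replicate 1, uncorrected). Tet1, a dioxygenase that oxidises methylcytosine, had 847.8 and 785.1 CPM in withdrawn and 1052 and 1082 CPM in maintained libraries (-0.39 ± 0.04, and -0.15 ± 0.03 after correction, adjusted p = 0.00128). Of 27 Polycomb genes 3 were called higher and 4 lower, and 4 higher and 2 lower after correction, near the shares over all genes (10.4% and 9.29%, and 8.88% and 6.55% after correction). With 1 library left out edgeR called 0 to 3 of these higher (0 without withdrawn replicate 2, 1 without either maintained library) and 2 or 3 lower (2 without withdrawn or maintained replicate 1).

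Pluripotency genes did not move as one group. Of 24 naive genes 5 were called higher and 8 lower (4 higher and 6 lower after correction), with medians of -0.072 and -0.027 against -0.0016 and 0.0040 over all genes. Of all tested genes 10.4% were called higher and 9.29% lower (8.88% and 6.55% after correction). Without withdrawn replicate 2 the uncorrected counts were 4 higher and 4 lower. Dppa5a, an RNA-binding protein of embryonic stem cells, had 1927 and 2123 CPM in withdrawn and 1536 and 1637 CPM in maintained libraries (0.35 ± 0.04, adjusted p = 7.93e-09). Zfp42, which encodes Rex1, had 100.0 and 107.8 CPM in withdrawn and 84.1 and 83.6 CPM in maintained libraries (0.31 ± 0.05). Fgf4, a paracrine ligand of embryonic stem cells, changed by 0.26 ± 0.04. Esrrb, an orphan nuclear receptor of naive cells, was lower, with 1025 and 1051 CPM in withdrawn and 1150 and 1137 CPM in maintained libraries (-0.14 ± 0.03, adjusted p = 0.00172, and adjusted p = 0.0245 after correction). Prdm14 was also lower (-0.15 ± 0.04), a call that was lost without withdrawn replicate 2 (-0.13). Dnmt3l, a cofactor of DNA methylation, had 575.9 and 610.5 CPM in withdrawn and 644.1 and 631.9 CPM in maintained libraries (-0.11 ± 0.03, and -0.18 ± 0.03 after correction), but its uncorrected call was lost without withdrawn replicate 1 (-0.063) or maintained replicate 1 (-0.092). Klf2, Klf4 and Klf5 had adjusted p of 0.128, 0.243 and 0.535. Tfcp2l1, a LIF-responsive factor, changed by -0.14 ± 0.04 but by 0.020 ± 0.03 after correction, and its call was also lost without withdrawn replicate 2 (-0.11) or maintained replicate 2 (-0.12).

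Of the shared core of 15 genes 8 were called lower and 2 higher, and 6 lower and 1 higher after correction, with medians of -0.15 and -0.098. Over all tested genes 9.29% were called lower and 10.4% higher, and 6.55% and 8.88% after correction. Dppa2 (82.4 and 72.3 CPM in withdrawn and 93.1 and 102.0 CPM in maintained libraries) and Zscan10, L1td1 and Tdh were lower by 0.16 to 0.33 on the log2 scale, in all of which the call held after correction. Pou5f1, which encodes Oct4, had 1739 and 1903 CPM in withdrawn and 1689 and 1600 CPM in maintained libraries (0.15 ± 0.04, adjusted p = 0.00239), but was not called after length correction (0.050, adjusted p = 0.348) or without withdrawn replicate 2 (0.082) or maintained replicate 2 (0.11). Without maintained replicate 2 the count of core genes called higher became 0, and edgeR called 7 lower, and without either withdrawn library 1 was called higher. Sox2 had 918.0 and 851.8 CPM in withdrawn and 903.1 and 814.5 CPM in maintained libraries (adjusted p = 0.525), and Nanog 965.5 and 882.4 CPM in withdrawn and 954.0 and 959.7 CPM in maintained libraries (adjusted p = 0.389). Of 24 primed genes 1 was called higher and 3 lower, and 3 higher and 3 lower after correction. Beside these stand 10.4% higher and 9.29% lower over all tested genes, and 8.88% and 6.55% after correction. With 1 library left out 0 to 2 were called higher (0 without either replicate 2, 2 without maintained replicate 1) and 1 or 2 lower (1 without withdrawn replicate 2). Lef1, Zic2 and T were those called lower, of which T, a mesoderm factor, lay under 1 CPM in both groups. The call of T was lost with any of the 4 libraries left out, and that of Zic2 without withdrawn replicate 2 (-0.17). Otx2, a factor of the primed epiblast, had 94.9 and 95.1 CPM in withdrawn and 97.9 and 101.6 CPM in maintained libraries (adjusted p = 0.368), and Fgf5 had 1.44 and 0.917 CPM in withdrawn and 0.941 and 1.46 CPM in maintained libraries.

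On the axis set by EpiSC (0) and ESC (1) over the 4515 genes called at 2-fold or more between them, withdrawn libraries stood at 0.755 and 0.760 and maintained libraries at 0.755 and 0.759. The groups overlapped, and their difference of 0.00040 had an exact permutation p of 1, where 0.33 is the smallest possible. Leaving out single libraries gave differences from -0.0023 to 0.0031. The rES passage 6 libraries stood at 0.735 and 0.738, and MM401 day 3 libraries at 0.712 and 0.713.

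**Figure D3:**
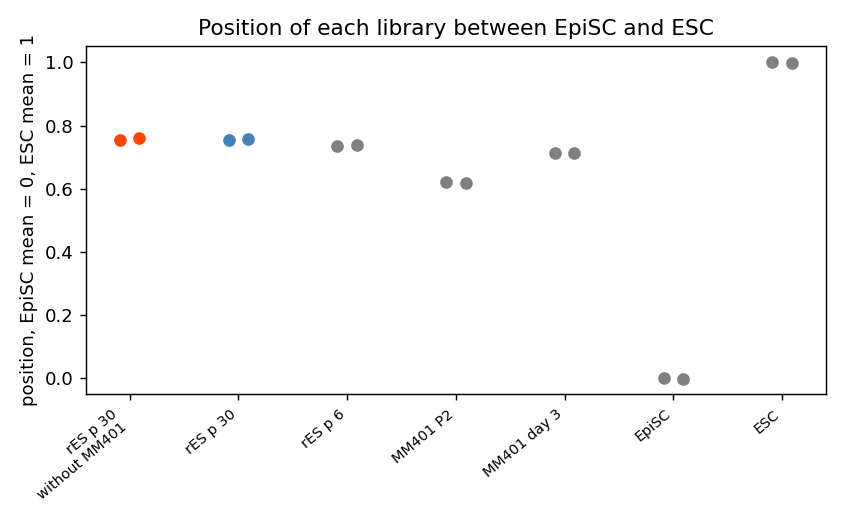
Position of each library between the EpiSC mean (0) and the ESC mean (1), 2 points per group, over 4515 genes. Withdrawn libraries at 0.755 and 0.760 and maintained libraries at 0.755 and 0.759 lie on top of each other.

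Signalling genes changed by similarly small amounts, and several feedback and target genes fell. Of 29 Wnt pathway genes 9 were called lower and 1 higher, and 8 lower and 1 higher after correction. Over all tested genes 9.29% were called lower and 10.4% higher, and 6.55% and 8.88% after correction. Lef1, a transcription factor and target of Wnt signalling, had 10.3 and 9.22 CPM in withdrawn and 15.1 and 18.2 CPM in maintained libraries (-0.76 ± 0.10, adjusted p = 4.08e-07). Porcn, the acyltransferase needed to secrete Wnts, had 43.0 and 41.1 CPM in withdrawn and 60.9 and 54.1 CPM in maintained libraries (-0.45 ± 0.06), and Tcf7l1, a repressor of Wnt targets, changed by -0.35 ± 0.05. For this list edgeR called 5 genes lower without withdrawn replicate 2 and 7 without maintained replicate 2, and 0 higher without either withdrawn library or maintained replicate 1.

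Of 21 genes of FGF signalling and ERK feedback 7 were called lower and 1 higher, and 5 lower and 1 higher after correction (4 lower without withdrawn replicate 2 and 2 higher without withdrawn replicate 1, uncorrected). Egr1, an immediate early factor downstream of ERK, had 105.8 and 90.5 CPM in withdrawn and 144.5 and 142.7 CPM in maintained libraries (-0.55 ± 0.05, adjusted p = 7.11e-11, and -0.50 ± 0.05 after correction). Spry4, a feedback inhibitor, had 109.5 and 100.5 CPM in withdrawn and 139.0 and 134.7 CPM in maintained libraries (-0.38 ± 0.05). Among 24 immediate early genes 4 were called lower and 3 higher, and 5 lower and 3 higher after correction (4 lower and 8 higher without maintained replicate 1, uncorrected). For both lists, the shares over all tested genes were 9.29% lower and 10.4% higher, and 6.55% and 8.88% after correction. Fos had 20.5 and 16.9 CPM in withdrawn and 26.0 and 27.6 CPM in maintained libraries (-0.52 ± 0.08), and Myc had 41.6 and 40.4 CPM in withdrawn and 57.8 and 55.8 CPM in maintained libraries (-0.47 ± 0.06). Maff, a small Maf factor, rose by 0.33 ± 0.06.

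Of 21 Nodal and activin genes 6 were called lower and 2 higher, and 5 lower and 1 higher after correction. For this list and the next 2, the shares over all tested genes were 9.29% lower and 10.4% higher, and 6.55% and 8.88% after correction. Lefty1, an antagonist of Nodal, had 264.3 and 249.1 CPM in withdrawn and 353.8 and 315.6 CPM in maintained libraries (-0.38 ± 0.04, adjusted p = 7.26e-09). Lefty2 had 536.5 and 533.0 CPM in withdrawn and 648.8 and 625.9 CPM in maintained libraries (-0.25 ± 0.03). Inhbb, a subunit of activin B, changed by 0.32 ± 0.05. Of 20 BMP and Id genes 5 were called higher and 2 lower, and 4 higher and 1 lower after correction, but only 2 higher and 3 lower without maintained replicate 2, and 3 higher and 1 lower without either withdrawn library. Dusp9, a phosphatase that restrains ERK downstream of BMP, had 526.0 and 544.4 CPM in withdrawn and 446.5 and 408.6 CPM in maintained libraries (0.32 ± 0.04, adjusted p = 2.59e-08). Id1, an inhibitor of bHLH factors, had 18.7 and 19.6 CPM in withdrawn and 15.0 and 13.3 CPM in maintained libraries (0.43 ± 0.09). Of 18 genes of LIF and STAT3 4 were called lower and 1 higher, and 2 of each after correction (1 lower without withdrawn replicate 2, 2 lower without maintained replicate 2 and 3 higher without maintained replicate 1, uncorrected), Pim3, a kinase that STAT3 induces, being higher by 0.26 ± 0.04, and by 0.13 ± 0.03 after correction for length and GC content.

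Many subunits of the respiratory chain, the mitochondrial ribosome and the proteasome were called higher, and fewer after length correction. For the lists of this paragraph, the shares over all tested genes were 10.4% higher and 9.29% lower, and 8.88% and 6.55% after correction. Of 77 nuclear-encoded respiratory chain subunits 42 were called higher, and 24 after correction, with medians of 0.17 and 0.084. Cox7a2, a subunit of cytochrome c oxidase, had 194.3 and 188.6 CPM in withdrawn and 142.6 and 146.8 CPM in maintained libraries (0.40 ± 0.04, and 0.30 ± 0.04 after correction). Ndufb11, of complex I, changed by 0.45 ± 0.05. Of 77 mitochondrial ribosomal proteins 30 were called higher, and 23 higher and 2 lower after correction (2 lower also without withdrawn replicate 1, uncorrected). Of 38 proteasome subunits 21 were called higher, and 14 higher and 1 lower after correction, with Psmb1 at 0.33 ± 0.04. Cytosolic ribosomal proteins lost their tilt, with 21 higher and 5 lower of 84 without correction but 13 higher and 14 lower after it, and 13 higher and 4 lower without maintained replicate 2 (3 lower without withdrawn replicate 1).

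More genes of DNA replication were called higher than lower in both fits, and most were not called. Of 40 members 16 were called higher and 1 lower, and 15 and 1 after correction, with medians of 0.11 and 0.079. For this list and the mitosis list, the shares over all tested genes were 10.4% higher and 9.29% lower, and 8.88% and 6.55% after correction. Gins2, a subunit of the replicative helicase, had 96.1 and 96.3 CPM in withdrawn and 75.6 and 71.3 CPM in maintained libraries (0.39 ± 0.05, adjusted p = 3.63e-07). Of 38 mitosis genes 5 were called higher and 5 lower, and 11 higher and 1 lower after correction. The uncorrected count of lower calls was 2 without withdrawn replicate 1 and 3 without either replicate 2. Cdk1, the mitotic kinase, had 417.4 and 422.5 CPM in withdrawn and 339.4 and 342.2 CPM in maintained libraries (0.30 ± 0.03).

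**Figure D4:**
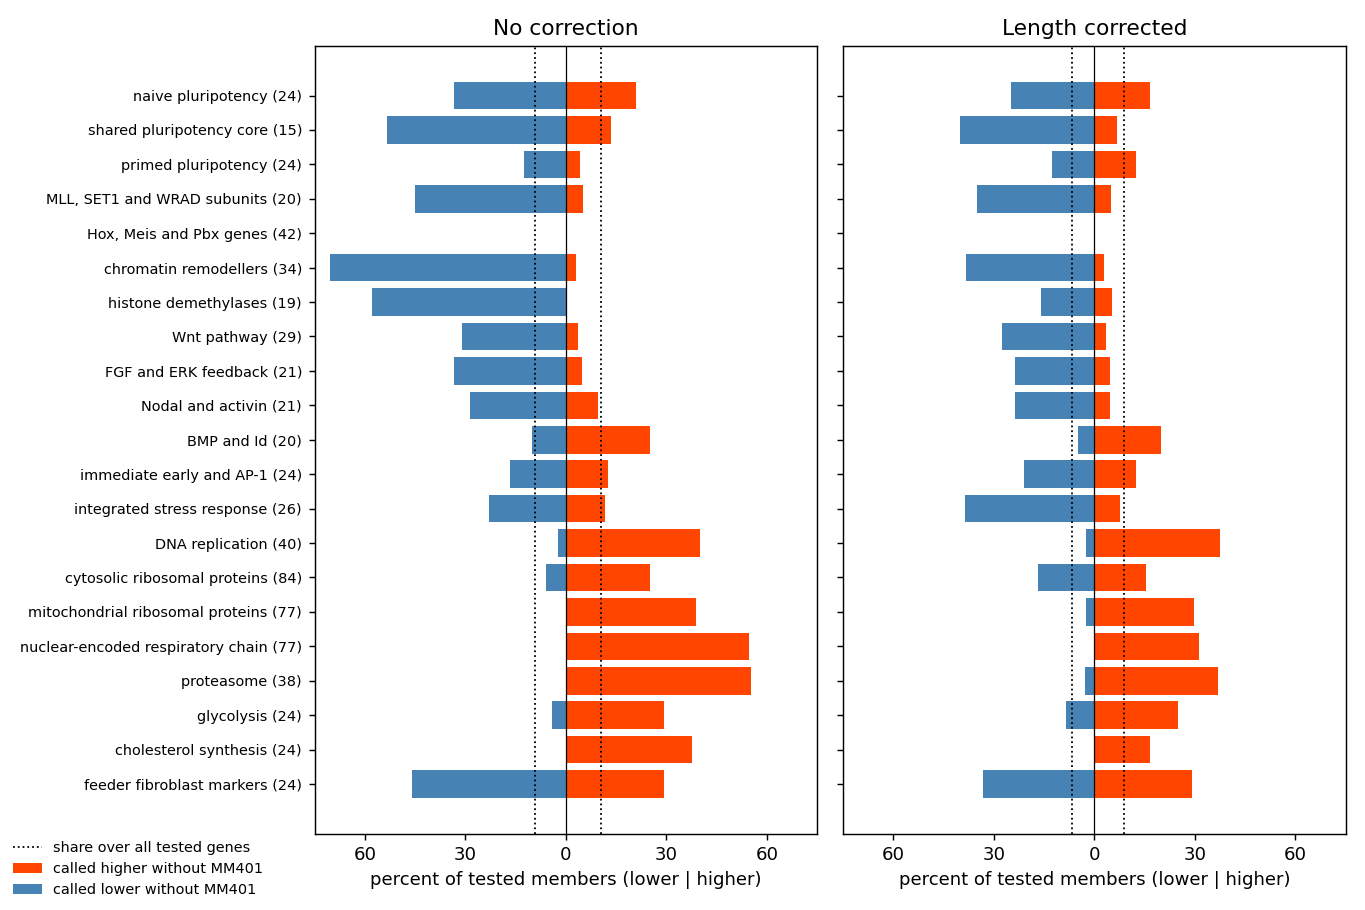
Share of tested members of 21 gene lists called higher (right of 0) or lower (left of 0) in withdrawn cells, without correction (left panel) and after length correction (right panel), with the number of tested members in parentheses. Dotted lines mark the shares over all tested genes, 10.4% higher and 9.29% lower without correction and 8.88% and 6.55% after it.

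Some metabolic genes were called higher and others lower. Over all tested genes the shares were 10.4% higher and 9.29% lower, and 8.88% and 6.55% after correction. Of 24 glycolysis genes 7 were called higher and 1 lower, and 6 and 2 after correction (4 higher without withdrawn replicate 2, and 2 lower without either replicate 1, uncorrected), with Ldhb, a lactate dehydrogenase subunit, at 343.4 and 360.7 CPM in withdrawn and 270.7 and 277.8 CPM in maintained libraries (0.36 ± 0.04). Of 24 cholesterol synthesis genes 9 were called higher without correction and 4 after it, and 4 without withdrawn replicate 2. Insig1, which retains the sterol sensor, changed by 0.20 ± 0.04. Of 15 fatty acid synthesis genes 1 was called higher and 2 lower, and 1 of each after correction (0 higher with any of the 4 libraries left out, uncorrected). Fasn, the fatty acid synthase, had 693.3 and 732.8 CPM in withdrawn and 835.4 and 777.2 CPM in maintained libraries (-0.18 ± 0.04) but changed by -0.0026 after correction (adjusted p = 0.979), and Fads1, a desaturase, changed by -0.19 ± 0.04. The metallothioneins Mt1 and Mt2, which bind zinc and other metals, rose together: Mt1 had 129.7 and 136.7 CPM in withdrawn and 96.1 and 93.3 CPM in maintained libraries (0.49 ± 0.05, adjusted p = 1.46e-10), and Mt2 changed by 0.42 ± 0.04. Of 20 genes of the NRF2 and oxidative stress list 8 were called higher, and 6 higher and 4 lower after correction (1 lower without withdrawn replicate 2, uncorrected), with Prdx1, a peroxidase, at 0.30 ± 0.03. Among 21 p53 targets 7 were called higher and 4 lower, and 5 of each after correction (4 higher without either replicate 2, uncorrected). Ccng1 rose by 0.35 ± 0.04, while Trp53 itself had 210.9 and 204.7 CPM in withdrawn and 248.2 and 243.5 CPM in maintained libraries (-0.24 ± 0.04).

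Markers of feeder fibroblasts differed between the groups, and some markers of other cell types were called as well. The summed level of 24 feeder fibroblast markers was 5134 and 5198 CPM in withdrawn and 6021 and 6013 CPM in maintained libraries, against a mean of 11230 CPM in rES passage 6, and all 24 had counts in each of the 4 libraries. Of these 24, 11 were called lower and 7 higher, and 8 and 7 after correction. Over all tested genes 9.29% were called lower and 10.4% higher, and 6.55% and 8.88% after correction. Fn1, which encodes fibronectin, had 1725 and 1707 CPM in withdrawn and 2415 and 2409 CPM in maintained libraries (-0.49 ± 0.03), and Thbs1, which encodes thrombospondin, had 799.0 and 820.0 CPM in withdrawn and 977.2 and 986.8 CPM in maintained libraries. Most of the difference in the feeder sum lay in these 2 genes. In the other direction, Lgals1, a galectin, had 247.7 and 233.4 CPM in withdrawn and 192.7 and 185.1 CPM in maintained libraries (0.35 ± 0.04). Calls went both ways among these markers, so the lower sum does not stand for the whole set. Changes in cell number, in RNA per cell and in which cells made these transcripts cannot be told apart in bulk libraries. The part of feeder cells in other results was not tested. Of 16 primitive endoderm genes 6 were called lower, and 4 after correction, which include the basement membrane laminins Lamc1 (-0.40 ± 0.04), Lama1 (-0.41 ± 0.04, and -0.24 ± 0.04 after correction) and Lamb1 (-0.29 ± 0.04). For this list leaving out withdrawn replicate 1 gave 3 calls lower. A narrower set of 7 primitive endoderm markers summed to 100.5 and 97.9 CPM in withdrawn and 110.2 and 108.2 CPM in maintained libraries, and edgeR called 0 of them in either fit, with 2 lower at an unadjusted p under 0.05 and 0 called by DESeq2. Of 6 trophoblast markers edgeR called 0 in either fit, with 1 higher at an unadjusted p under 0.05 and 0 called by DESeq2. Their sum was only 6.89 and 6.13 CPM in withdrawn and 5.60 and 6.58 CPM in maintained libraries, so small changes could go uncalled. Of 4 neuroectoderm markers 1 was called lower, and 1 higher after correction. Of 5 tested mesendoderm markers 2 were called higher and 1 lower in both fits, and DESeq2 called 2 higher and 0 lower. The edgeR calls were Eomes and Gsc higher and T lower. T lay under 1 CPM in both groups. Gsc was not called by edgeR when GC content was corrected too (adjusted p = 0.0771). The mesendoderm set summed to 24.4 and 26.9 CPM in withdrawn and 21.2 and 17.4 CPM in maintained libraries.

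Genes of 2-cell-like cells, a rare state of embryonic stem cell cultures, were called lower at 4 of 14 members in both fits. The shares called lower over all tested genes were 9.29%, and 6.55% after correction. Zscan4d, which marks that state, had 5.55 and 4.83 CPM in withdrawn and 8.12 and 10.3 CPM in maintained libraries (-0.83 ± 0.23, adjusted p = 0.0078), and Zfp352 had 3.15 and 3.19 CPM in withdrawn and 6.16 and 5.51 CPM in maintained libraries (-0.88 ± 0.26). The call of Zscan4d was lost without withdrawn replicate 2 (-0.73) or maintained replicate 2 (-0.64), and that of Zfp352 without either withdrawn library (-0.87 and -0.89) or maintained replicate 1 (-0.80). With a library left out, 1 or 2 genes of the list were called, 1 without maintained replicate 1, maintained replicate 2 or withdrawn replicate 2 and 2 without withdrawn replicate 1. Members of the Zscan4 family are near-identical, and how the authors counted reads shared among them is not given, so their values are uncertain.

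Xist, the noncoding RNA that coats the inactive X chromosome, had 37.6 and 30.8 CPM in withdrawn and 48.3 and 50.2 CPM in maintained libraries (-0.52 ± 0.12, adjusted p = 0.0082). Its transcript is 17946 bases long, and it was not called after length correction (-0.25 ± 0.11, adjusted p = 0.171) or without withdrawn replicate 2 (-0.39), maintained replicate 1 (-0.55) or maintained replicate 2 (-0.49). Its antisense partner Tsix, named in the genotype, lay at or below 1.58 CPM in all 4 libraries, and without knowledge of the strand, reads of the 2 genes cannot be told apart. The mean of Xist was 87.2 CPM in rES passage 6, 624 CPM in EpiSC and 30.9 CPM in ESC.

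Calls of the withdrawal were set beside 2 comparisons that share no library with it. Of the 3187 called genes 2704 (84.8% of these, and 21.7% of the 12433 genes called there) were also called in MM401 day 3 cells against EpiSC, of which 1685 had the same sign and 1019 the opposite sign (62.3% the same). After length correction 2123 were shared and 56.5% had the same sign. Of genes called between ESC and EpiSC 2660 were shared, and 44.6% had the same sign, or 43.9% after correction. The day 3 comparison called 76.6% of all genes (76.4% after correction) and the ESC comparison 74.5% (74.5% after correction), so a gene called in the withdrawal would often be called there. The size of the withdrawal was small against both, as 27.4% of genes were called at 2-fold or more in MM401 day 3 cells against EpiSC and 27.8% in ESC against EpiSC.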

How the data were processed

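RNA was measured in 14 libraries, 2 in each of 7 groups, and 4 of them are compared. The authors deposited raw read counts per gene, and the submitters' processing notes list mm9, TopHat2, Subread and DESeq, with no version or role. Per the labels' protocols, libraries were single-end Illumina TruSeq from RNA cleaned with DNase. No source used here gives the strand or the treatment of multiply mapped reads. The deposited table has 24015 gene rows. Left out were 27 names read as dates (at most 0.254% of counts) and 2 columns without a matching label.

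Genes passing filterByExpr (16222) were scaled by TMM and tested in edgeR 4.0.16 (R 4.3.3) by its robust quasi-likelihood test, with 1 fit over all 14 libraries and a mean for each group. Calls needed a Benjamini-Hochberg adjusted p under 0.05, two-sided, over all genes tested. The standard error is the absolute log2 fold change divided by the square root of F. The length-corrected fit used offsets from a spline (5 degrees of freedom) of log2 CPM (prior count 2) on the longest transcript of GENCODE M21, available for 99.2% of tested genes. Promoter windows came from RefSeq (GRCm38.p6) by symbol. The fits were also run on counts simulated with and without a linear length trend. That simulation held no GC effect and no outlying library in the compared groups, and no result above rests on it.

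Genes were named from 27 fixed ones, from the 15 called genes that rose most and the 15 that fell most among those whose mean reached 10 CPM in 1 group, and up to 5 called members of each of 49 lists by smallest adjusted p. Members and lists were chosen with earlier results of these data known. The numbers of replicates do not pair the samples (correlation of same-numbered deviations 0.0037). Alternatives were other scalings, no filter, DESeq2 1.42.0, a 2-fold threshold, fewer libraries, thinning, GC correction and a replicate block. Total counts limit the precision. Some genes that this rule names are not reported here.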

Additional observations from a re-analysis of the deposited data

How the results depend on the processing

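Counts depended on depth and on single libraries. Against 3187 called genes (1680 higher, 1507 lower, 44 at 2-fold or more), thinning to the shallowest library gave 2082, 1085, 997 and 17. Leaving out 1 library gave 1987 to 2743 called, 1003 to 1503 higher, 984 to 1240 lower and 22 to 78 at 2-fold or more. The lowest came without withdrawn replicate 2 (1987, 1003 and 984), and leaving out maintained replicate 1 gave 78 and maintained replicate 2 gave 1115 higher and 22. The 2-fold count was 17 in DESeq2 and 83 without the day 3 and P2 libraries, and all 4 counts were 0 against a 2-fold null. After length correction, a setting added after the data were seen left out 1 library each and gave 1531 called without withdrawn replicate 2 (868 higher, 663 lower) and 942 higher without maintained replicate 2. A fit of the 4 compared libraries alone called 2617 genes, 1318 higher and 1299 lower. With a replicate block 3192 genes were called and with block and length correction 2498, at a correlation of same-numbered deviations of 0.0037. The length slope was -0.064 and became -0.091 for genes of at least 10 CPM, -0.052 with the median transcript length, and -0.048 to -0.077 with 1 library left out. The difference in position ranged from -0.0023 to 0.0031 with 1 library left out (-0.0023 without withdrawn replicate 2, -0.0015 without maintained replicate 1). Signs turned for Tfcp2l1 (0.020 with length correction, 0.019 with the block added, 0.031 with GC added), Dnmt3a (0.17 in all 3), Tet2 (0.0081, 0.0073 and 0.0075) and Meg3 (0.0026, 0.0029 and 0.019), and for Rn45s without maintained replicate 2 (0.64, and -1.26 without maintained replicate 1). The causes were not tested. Depth limits genes under 10 CPM.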

Other observations

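Most other gene groups held calls in both directions. Over all tested genes 10.4% were called higher and 9.29% lower, and 8.88% and 6.55% after length correction. Of 35 imprinted genes 3 were called higher and 8 lower, and 5 of each after length correction. H19, a maternally expressed noncoding RNA, had 205.7 and 219.2 CPM in withdrawn and 143.5 and 140.9 CPM in maintained libraries (log2 fold change 0.58 ± 0.04, adjusted p = 1.7e-13 in edgeR). Its mean was 256.4 CPM in rES passage 6, and maintained cells at passage 30 were lower than those at passage 6 (-0.85, adjusted p = 7.3e-21). Peg10, a gag-pol derived gene, changed by -0.48 ± 0.05, and Meg3 by -0.24 ± 0.04 but by 0.0026 after correction. Of 23 interferon and MHC class I genes 2 were called higher and 2 lower, and 2 and 4 after correction (1 lower without either maintained library, and 1 higher without either replicate 2, uncorrected), near the shares over all genes (10.4% higher and 9.29% lower), with Ifit1, an interferon-induced protein, at 3.01 and 2.51 CPM in withdrawn and 1.41 and 0.829 CPM in maintained libraries.

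Heat shock genes gave 5 called higher and 3 lower of 16 (3 higher without maintained replicate 1, 1 lower without withdrawn replicate 2 and 0 lower without maintained replicate 2), and 6 and 2 after correction, with Hsp90aa1 at 862.7 and 834.5 CPM in withdrawn and 696.5 and 735.2 CPM in maintained libraries (0.25 ± 0.03). Genes of the spliceosome were called in both directions, 10 higher and 9 lower of 55, and 12 and 11 after correction. Sf3b6 rose by 0.49 ± 0.06 and Sf3b3 fell by 0.34 on the log2 scale. Of 57 translation factors 14 were called higher and 5 lower, and 17 and 4 after correction. Gsc, a mesendoderm factor, had 9.30 and 10.9 CPM in withdrawn and 7.31 and 5.32 CPM in maintained libraries (0.66 ± 0.14), but was not called when GC content was corrected too (0.33 ± 0.13, adjusted p = 0.0771). For 44 tested clustered protocadherins edgeR called 0 in either fit, with 2 lower at an unadjusted p under 0.05, and DESeq2 called 0. The 58 in the deposited data summed to 50.6 and 52.9 CPM in withdrawn and 60.7 and 56.3 CPM in maintained libraries. At such levels small changes could go uncalled.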
